A study of Homo sapiens with 2 samples.

Results

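EPOR encodes the erythropoietin receptor and lies on the minus strand of chromosome 19, at 11377207 to 11384314 on hg38, so that its transcription starts at the higher coordinate. All peaks of the deposited list with their summit in this gene or within 50 kb of it were taken, which gave 2 of 1645 peaks. Of all 19970 protein-coding genes, 17.7% had at least 1 summit by this measure and 3.25% at least 2. The list comes from a chromatin immunoprecipitation study in F36P, a cell line from a human erythroleukaemia. They carried the retroviral vector MSCV-PIG, either empty (Vector, labelled WT) or expressing ERG with an AM tag (AM-ERG, labelled as ERG overexpression). Puromycin selection, for 4 days at 1 µg/ml, was applied to both kinds of cells, and the antibody recognised the tag. ERG was therefore introduced from a vector in these cells, and whether the selected cells were a clone is not given in the labels. The labels give 1 library per group and 1 peak list was analysed, and the list does not name the library its peaks were called in. Folds and pileups below are thus those of the deposited list, no value has a replicate error and AM-ERG could not be tested against Vector. No expression values were analysed here, so the cell line could not be checked by its marker genes.

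The erythropoietin receptor is a type I cytokine receptor of red cell precursors. On binding erythropoietin, a receptor dimer activates the kinase JAK2 bound to its inner part, which in turn activates STAT5, and the resulting signal keeps erythroid progenitors alive and dividing. In erythroid cells the EPOR promoter is known to be driven by GATA1 and by SP1, through a GATA element and a GC box. ERG belongs to the ETS family, whose members recognise a GGAA core in DNA, and the study asks how ERG holds back erythroid differentiation.

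The sequence before the start is shown because the stronger EPOR peak lies over it. The 250 bases that end just before a gene's annotated start are given from 5′ to 3′ on the gene's strand, from RefSeq on GRCh38.p14. The lines are EPOR, at chr19:11384315-11384564 on the minus strand, and 2 genes whose peaks were among the 5 most like it by the measure described further on. These are PLEKHG2, at chr19:39412419-39412668 on the plus strand, and CYP4V2, at chr4:186191317-186191566 on the plus strand. MYL12B, the gene with the most similar peak, is not shown, and CYP4V2 is the only one of the 5 whose window holds CCGGAAGT. Capitals mark matches on either strand to GGAA (the ETS core), CCGGAAGT (a longer ETS form), AGATAA (a longer GATA form), GGGCGG (the GC box) and CANNTG (the E-box bound by basic helix-loop-helix factors).
EPOR: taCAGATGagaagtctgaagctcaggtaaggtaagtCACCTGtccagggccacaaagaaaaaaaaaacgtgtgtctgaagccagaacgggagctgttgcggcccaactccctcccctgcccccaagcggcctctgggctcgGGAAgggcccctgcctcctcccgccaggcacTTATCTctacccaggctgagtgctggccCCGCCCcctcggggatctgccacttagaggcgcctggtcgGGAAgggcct
PLEKHG2: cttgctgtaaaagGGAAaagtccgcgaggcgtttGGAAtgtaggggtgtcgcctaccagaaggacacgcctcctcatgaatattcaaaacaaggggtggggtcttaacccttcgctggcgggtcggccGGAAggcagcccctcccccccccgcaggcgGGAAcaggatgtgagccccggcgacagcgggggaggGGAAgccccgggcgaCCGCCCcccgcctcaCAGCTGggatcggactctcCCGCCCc
CYP4V2: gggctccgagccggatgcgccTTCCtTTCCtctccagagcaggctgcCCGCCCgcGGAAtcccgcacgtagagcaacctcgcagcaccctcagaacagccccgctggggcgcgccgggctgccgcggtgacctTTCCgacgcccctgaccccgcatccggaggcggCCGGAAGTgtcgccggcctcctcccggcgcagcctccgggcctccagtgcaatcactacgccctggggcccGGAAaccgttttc

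Where the peaks lay on EPOR was described first. Both summits were inside the gene and near its start. The stronger peak spanned chr19:11383987-11384766, which is 780 bp, of which 452 bp lay upstream of the start and 328 bp in the gene. Its summit was 59 bp downstream of the start, and thus 121.5 bp from the middle of the peak towards the gene. The weaker, inner peak spanned chr19:11383093-11383676, which is 584 bp, wholly within the gene, with its summit 883 bp downstream of the start. The summits were 824 bp apart and 310 bp separated the peaks. Both summits lay in the first 12.4% of the gene's length of 7108 bp. Exons and introns were not separated here.

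The authors' values set the peaks apart in strength. At the start peak the fold enrichment over local background was 11.2, the −log10 p 70.2 and the −log10 q 63.8. At the inner peak the fold was 4.75, the −log10 p 16.9 and the −log10 q 12.2. The pileup at the summit (the number of fragments that cover it) and the local background were recovered from the fold and the p. The start peak had a pileup of 97 fragments (exact Poisson interval at 95%, 78.7 to 118) on a background of 7.74 fragments, and the inner peak a pileup of 41 (29.4 to 55.6) on 7.85. The backgrounds were thus nearly equal, while the pileup at the start was 2.37 times that inside the gene. With the background held fixed, these intervals give a fold of 9.11 to 13.6 at the start and of 3.44 to 6.40 at the inner summit, and they do not overlap. The intervals cover counting error in 1 library only, and fragments without molecular identifiers need not be independent molecules.

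The surrounding region held no other listed peak. The window of 107 kb touches 7 other protein-coding genes. On the downstream side, SWSAP1 (1038 bp away), PLPPR2, CCDC159, TMEM205 and RAB3D had no summit inside or up to 1 kb away, and the EPOR inner summit, 7262 bp from SWSAP1, was the nearest to any of them. On the upstream side, RGL3 (9746 bp away) had none either. The seventh gene, ODAD3, had a summit 126 bp inside its upstream end. This peak was 51.3 kb from EPOR, 1342 bp beyond the limit, and also lay 21 bp from an end of PRKCSH. Its fold was 3.86, with a pileup of 27 fragments on a background of 6.26. On the other side the nearest summit was 774 kb away, at SLC44A2, with a fold of 3.37. The plot of the locus shows the pair of EPOR summits alone in the window.

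**Figure D1:**
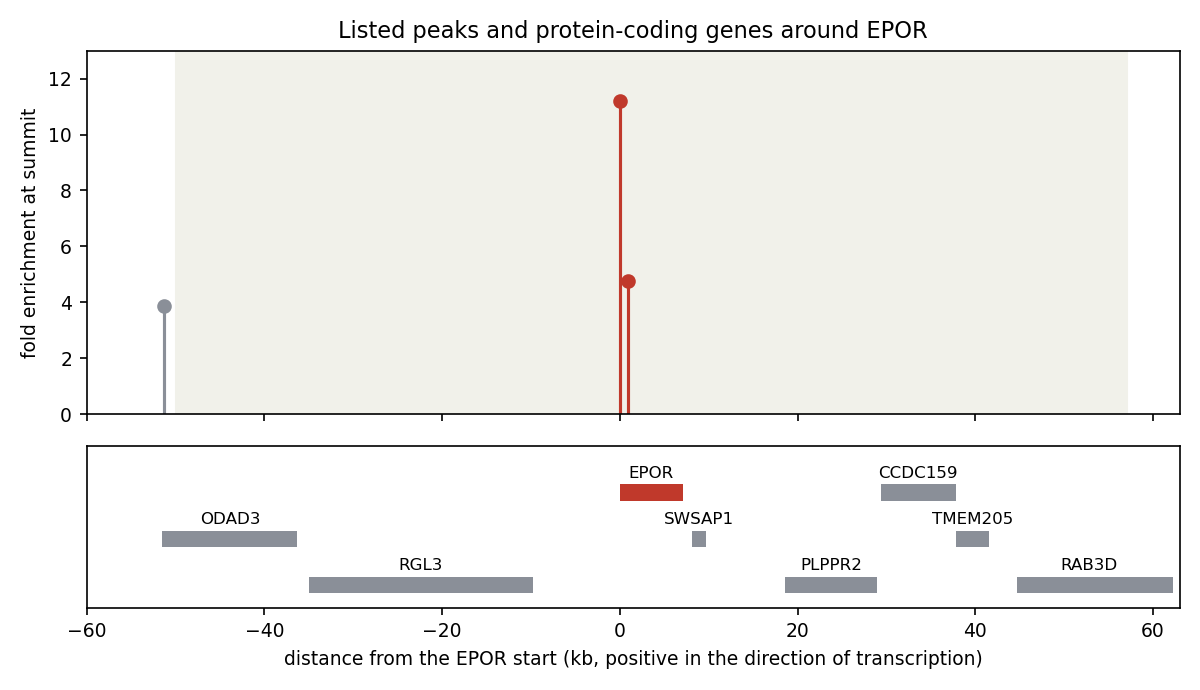
Fold enrichment at each listed summit (upper panel, linear axis) and protein-coding genes (lower panel, boxes) against distance in kb from the EPOR start, with the window of 50 kb around the gene shaded. The EPOR peaks, of 11.2 and 4.75 fold, are the only summits in the window, and the peak at the end of ODAD3, of 3.86 fold, lies just outside it.

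A pair of summits at a single start was uncommon in the list. Of 15811 protein-coding genes with an annotated start in the table used, 6.41% had a summit within 1 kb of a start and 0.0949%, or 15 genes, had 2 within 1 kb of the same start. EPOR had the highest fold among the stronger members of these 15 pairs. BZW1 followed with 9.84 and 4.02 fold, and BIRC6 with 8.02 and 2.87 fold. The summit distance of 824 bp at EPOR compares with a median of 727 bp over the pairs, and the fold ratio of 2.36 between its peaks ranked 4 of 15 (median 1.53, highest 2.80). Counted over whole genes, 28 of 19970 protein-coding genes (0.14%) held 2 or more summits. Their median length was 66883 bp, and EPOR was the only one of the 28 as short as 7108 bp.

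The distance of the start peak from the start was common among peaks, and that of the inner peak was not. Of the 1564 peaks of chromosomes 1 to 22 and X, 880 had their summit within 1 kb of an annotated coding start. The median position was 84 bp downstream, the quartiles were 109 bp upstream and 188 bp downstream, and 184 summits lay from 0 to 118 bp downstream, around the 59 bp of EPOR. Only 11 summits, the inner EPOR summit among them, lay 800 bp or more downstream. By fold the start peak ranked 12 of the 880, where the median was 4.82, and the inner peak 465.

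**Figure D2:**
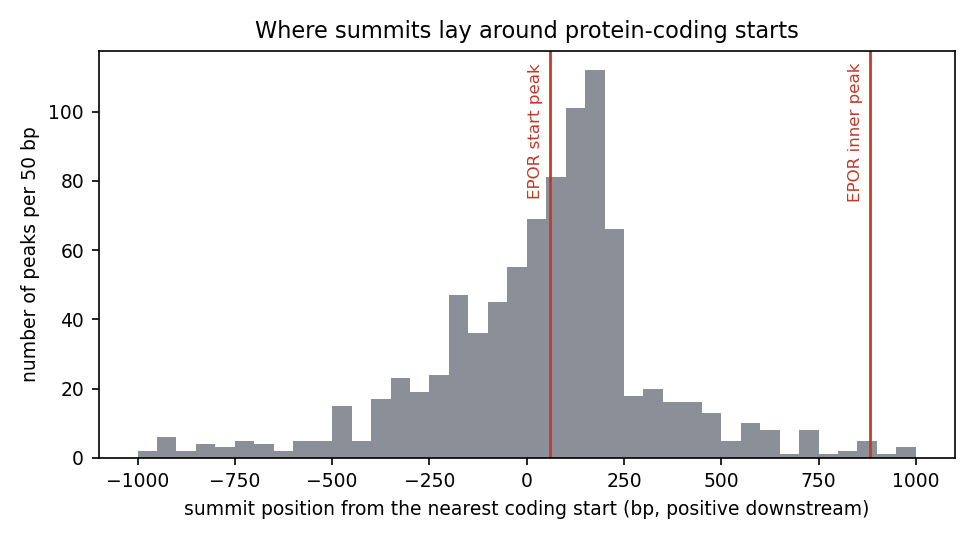
Histogram of summit positions around the nearest annotated start of a protein-coding gene, in bp, counted per 50 bp, with the EPOR summits as red lines. The start peak, at 59 bp, sits in the crowded stretch just downstream of starts, and the inner peak, at 883 bp, in the sparse tail.

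Ranked over the whole list, the start peak was 19 of 1645 by fold. It kept this rank when only the 1564 on chromosomes 1 to 22 and X were counted, so that 1.21% of those were at or above it. The counting interval of its fold holds 50 other peaks and allows ranks from 6 to 57. Among the 5 peaks just above it in fold were those nearest to CLTC (11.3), which encodes the clathrin heavy chain, HHEX (11.5), a homeobox factor of blood and endothelial progenitors, ASNS (11.6), the asparagine synthetase gene, and UFD1 (11.7). The 5 just below were nearest to PLEKHG2 (11.2), SKI (11.1), CYTH2 (10.8), KIF9 (10.8) and TMBIM6 (10.6). Of these 10 peaks, all but that of PLEKHG2 had a pileup of 30 to 49 fragments, below the 97 at EPOR, on backgrounds of 1.92 to 3.64. EPOR thus reached the same fold with more fragments, on a higher background.

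The order differed by measure. By −log10 p the start peak ranked 8 of the 1564 and 10 of all 1645. Of the 7 above it on chromosomes 1 to 22 and X, 5 were over 100 kb from any protein-coding gene end, with folds of 1.55 to 3.03 on backgrounds of 146 to 1507 fragments, and the others were at MYL12B (fold 14.4) and in RARA (23.3). By pileup it ranked 60 of the 1564, and by pileup minus background 27. By width it ranked 77, against a median of 390 bp. The inner peak was near the middle of the list by fold, at rank 745 of 1564, and at rank 262 by −log10 p and 185 by pileup.

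Among peaks at protein-coding gene ends, those most like the start peak in log2 pileup and log2 background were at MYL12B, PLEKHG2, SFSWAP, CYP4V2 and ATF4. Likeness was the straight-line distance in these log2 values over all peaks with a summit within 1 kb of such an end. MYL12B, a myosin light chain gene, had a pileup of 125 fragments on 7.74, at a distance of 0.37, and PLEKHG2 had 81 on 6.34, at 0.39. The other 3 had 60 or 61 fragments on backgrounds of 5.94 to 8.45, with folds of 6.46 to 8.94, at distances of 0.68 to 0.77. Only MYL12B and PLEKHG2 were thus close to EPOR in both quantities. Backgrounds within 0.001 fragments were counted as equal, which makes those of MYL12B and EPOR the same. Among the 186 peaks with at least this background, the median fold was 2.63. EPOR was second to MYL12B there, and of the 34 peaks with a fold of at least 10 only these 2 had so high a background by that tolerance (median of the 34, 2.68 fragments).

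**Figure D3:**
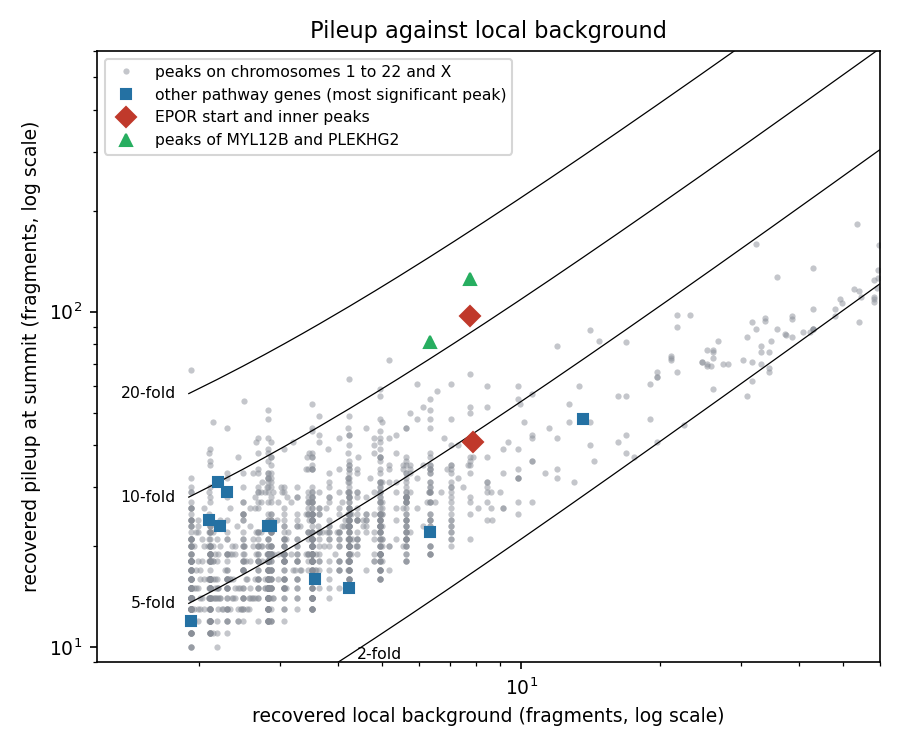
Recovered pileup at the summit against recovered local background, both in fragments on log scales, for peaks on chromosomes 1 to 22 and X with a background under 60, with lines of equal fold. The EPOR start peak (upper red diamond, 97 fragments on 7.74) lies with the peaks of MYL12B and PLEKHG2 (green triangles), apart from the other pathway genes (blue squares), and the inner EPOR peak (lower diamond, 41 on 7.85) lies just under the line of 5-fold.

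The background at EPOR was above that of most peaks. The median over the 1564 peaks was 3.52 fragments and the lowest 1.92, so the start peak stood on 2.20 and the inner peak on 2.23 times the median. Low backgrounds in the list often fell on whole multiples of 0.704 fragments (47.4% of the 1458 below 20 fragments, within 0.0002). This step was itself picked from these backgrounds for its large share of multiples. The background of the start peak equalled 11 such steps, while that of the inner peak, at 11.15 steps, was not a whole multiple. If each step is a fragment of a scaled control library, a count of 11 has an exact Poisson interval of 5.49 to 19.7, or 3.87 to 13.9 fragments of background. The interval of the fold given above leaves out this error.

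The raised background was shared with the neighbouring peaks. Without the EPOR peaks, the 13 others within 1 Mb of the EPOR start had backgrounds of 6.13 to 21.8 fragments, with a median 3.0 times that of the genome. Within 2 Mb the median was 2.10 times (24 other peaks), within 5 Mb 1.97 times (30) and within 10 Mb 1.35 times (54). The EPOR peaks belong to a run of 21 consecutive peaks, over 3060 kb, that were each above the genome median (4.22 to 21.8 fragments, median 7.85). Of 314 such runs on these chromosomes only that in the ribosomal DNA of chromosome 21, of 61 peaks, held more. Long runs were not particular to the EPOR region, as chromosome 19 also held runs of 15, 11, 10 and 10 peaks elsewhere. The peaks that ended the EPOR run were at MBD3L1, 2.55 Mb from the EPOR start, with 1.92 fragments, and at TRIR, 1.35 Mb away on the other side, with 3.52. Whether the region has extra copies in these cells was not tested.

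Within that run EPOR had the highest fold, while another peak had a like pileup. The highest fold of the other 19 was 5.83, at DNMT1, the maintenance DNA methyltransferase gene, whose peak had 50 fragments on 7.74, the same background as at EPOR. The peak at ZNF136, a zinc finger gene, had a pileup of 98 against the 97 of EPOR, but on a background of 21.8, which gave a fold of 4.34. Set on the genome's median background in place of its own, the EPOR start peak would have a fold of 21.7. Without the 190 peaks on a background of over 2 times the median, an alternative added after the data were seen, EPOR had no peak at all.

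**Figure D4:**
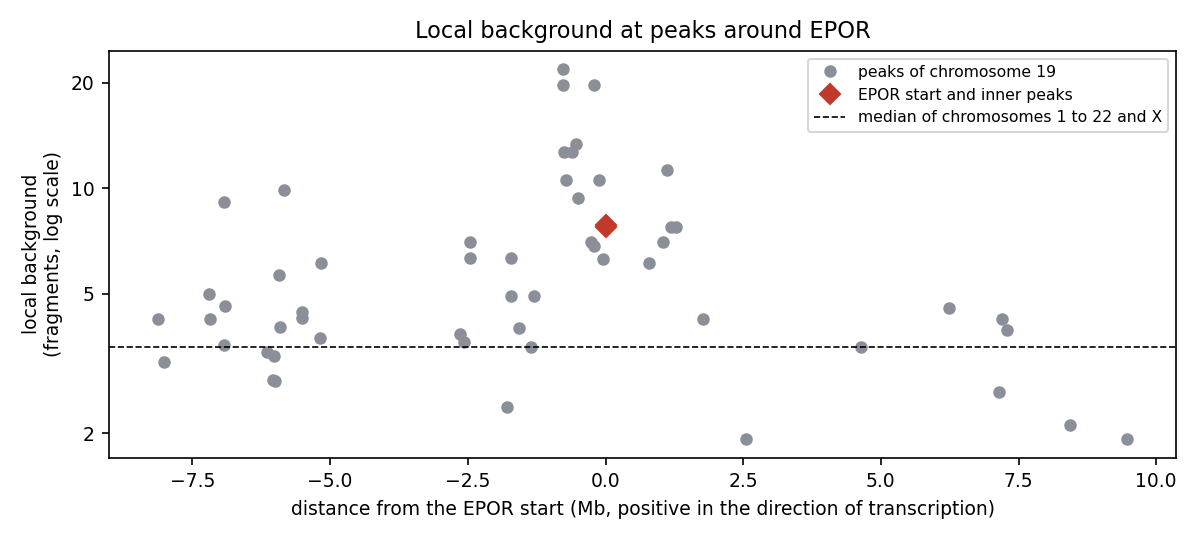
Local background in fragments (log scale) at peaks of chromosome 19 against distance in Mb from the EPOR start. Peaks within about 1 Mb of EPOR, up to 21.8 fragments, lie above the dashed median of 3.52, as do the EPOR peaks (red, 7.74 and 7.85).

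The letters of the promoter window, which covers part of the start peak, were then searched. The promoter window of 300 bases (250 before to 50 after the start) lay wholly inside the start peak, whose summit was 10 bp past the window's downstream end. The rest of this peak of 780 bp, with its summit, and the inner peak were not searched. The window held 2 GGAA cores, at 109 to 106 and 10 to 7 bp upstream of the start, against a median of 3 per window over 22131 windows at protein-coding starts, of which 95.2% held at least 1. Neither longer ETS form, CCGGAAGT or AGGAAG, was present in the window. CCGGAAGT stood in 5.34% of all windows and in 19.8% of the 1319 windows whose start had a summit within 1 kb, and AGGAAG in 33.5% and 35.9%. The EPOR window was thus among the 80.2% of windows with a summit that lack CCGGAAGT.

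A GATA form was present. AGATAA, read on the opposite strand as TTATCT, lay 78 to 73 bp upstream of the start and 135 bp from the summit. It stood in 7.88% of all windows and in 3.56% of those with a summit within 1 kb. Over the 47 peaks within 1 kb of a start whose window holds AGATAA, the median fold was 5.06 and that of the EPOR start peak ranked 2. A GC box, on the opposite strand as CCGCCC, lay 50 to 45 bp upstream of the start, a motif in 56.3% of all windows and 74.6% of those with a summit.

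E-boxes were numerous in the EPOR window. It held 5 matches to CANNTG, which reads the same form on both strands, and 1.40% of all windows held as many. Of the 5, CAGATG and CACCTG lay over 200 bp upstream of the start. The other 3, each CAGCTG, lay in the first 39 bp after it, the last of them 23 bp from the summit. The motifs CACCC (63.4% of all windows) and TGTGGT, a RUNX form (11.3%), were not in the window. The GC content of the EPOR window was ordinary, at 63.3% against a median of 62.3%, but it held fewer CG dinucleotides, 13 against a median of 21.

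The same motifs were counted in the windows of the similar peaks. PLEKHG2 had 5 GGAA cores and 2 GC boxes, and CYP4V2 had 7 GGAA cores, of which that at 82 to 79 bp upstream lies in its CCGGAAGT. MYL12B had 6 GGAA cores, SFSWAP 5 and ATF4 3, none with CCGGAAGT. AGATAA was in none of these 5, as in most windows with a summit within 1 kb, of which 3.56% held it. The matches describe the letters in these windows and are not measured sites of ERG.

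Other genes of the erythropoietin pathway were compared with EPOR. Of 33 genes on the list, 12 (36.4%) had a summit inside or no more than 10 kb away, where 9.58% of all 19970 protein-coding genes did. These 12 include EPOR, the gene chosen, and the list was made with earlier results of these data known. The difference between the shares is therefore no evidence that the pathway is enriched, and it was not tested. EPOR had the highest fold and pileup of the 12. Their median fold was 6.24, against 4.66 over the 1564 peaks. With the upper 50% of peaks by fold alone the count of listed genes, EPOR included, was 7. The share of all genes was not taken for that count, so it has no comparison.

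In the order of the signal, the ligand gene EPO had no summit within 10 kb, the nearest being 562 kb away. JAK2, the kinase on the receptor, had a peak 204 bp upstream of an annotated start, with a fold of 3.36. Its pileup of 48 fragments was the second highest of the list, on a background of 13.6 fragments, 3.86 times the median. By their most significant peak, EPOR and JAK2 were the only 2 of the 12 on more than 2 times the median background. STAT5A and STAT5B, the main transcription factors of the receptor, had no summit within 10 kb, with the nearest 76.3 and 99.9 kb away. STAT3, another factor that cytokine receptors activate, had a peak of 6.29 fold 154 bp inside its start.

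Among adaptors and effectors, SHC1 (fold 3.14), an adaptor, and PIK3CA (3.06), the catalytic subunit of phosphoinositide 3-kinase, had a summit 265 and 515 bp downstream of a start. GRB2 (4.45), an adaptor, had its summit inside the gene and 20643 bp from its nearer end. BCL2L1, which encodes the survival protein BCL-XL, had a fold of 9.99 at 166 bp downstream of its start, with 31 fragments on a background of 2.20. The counting interval of that fold, 6.89 to 14.1, holds the value of EPOR. No summit lay within 10 kb of GAB1, GAB2, SOS1, PIK3R1, AKT1 or PIM1.

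Among genes that dampen the receptor, CISH, a STAT5 target that feeds back on the receptor, had a peak of 6.20 fold 201 bp upstream of its start. PTPN6, the phosphatase SHP-1 that removes phosphate from the activated receptor complex, had a peak of 9.10 fold inside the gene, 2032 bp from its nearer end, and a weaker one of 3.32 fold farther inside. SH2B3 (3.73), the adaptor LNK, had its summit 813 bp upstream of an annotated start and inside the gene as the table bounds it. The most significant peak counted for PTPN11 (7.45), which encodes SHP-2, was 9469 bp outside that gene and nearer to an end of RPL6. A second, of 3.23 fold with 25 fragments on a background of 7.04, lay 12 bp from PTPN11's own end. SOCS1, SOCS2, SOCS3, PTPN1 and CBL had none within 10 kb, the nearest of these distances being 17.7 kb at SOCS3.

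Of the 12 genes, 8 had their most significant summit within 1 kb of an annotated start, and beside EPOR 4 had a second summit within 10 kb. The share of all genes with 2 or more summits within 10 kb was not taken, so the count of second summits has no comparison. Excluding EPOR, the windows of the listed genes with such a summit, 8 over both lists, held GGAA in 8 cases, CCGGAAGT in 2 (SHC1 and BCL2L1), a GC box in 5, an E-box in 2 and AGATAA in 0.

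Genes of the type I cytokine receptor family were counted next, with EPOR itself, the gene chosen, among them. Of 32 family genes, 5 had a summit inside or no more than 10 kb away (15.6%, against 9.58% of all protein-coding genes), and within 1 kb the count was 2, EPOR and IL27RA (7.24% of all genes). IL27RA, a subunit of the interleukin 27 receptor, had a fold of 4.97 and 23 fragments 373 bp downstream of its start. The peaks counted for IL4R (6.51) and IL3RA (5.17), the interleukin 4 and 3 receptor alpha chains, lay 2875 and 9176 bp outside the genes. No relative had more than 23 fragments at its summit, against 97 at EPOR.

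The common beta chain gene CSF2RB, on both lists, had its nearest summit at 290 kb, and CSF3R, the granulocyte colony-stimulating factor receptor gene, at 80.2 kb. The plot of listed genes shows the intervals beside each fold.

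**Figure D5:**
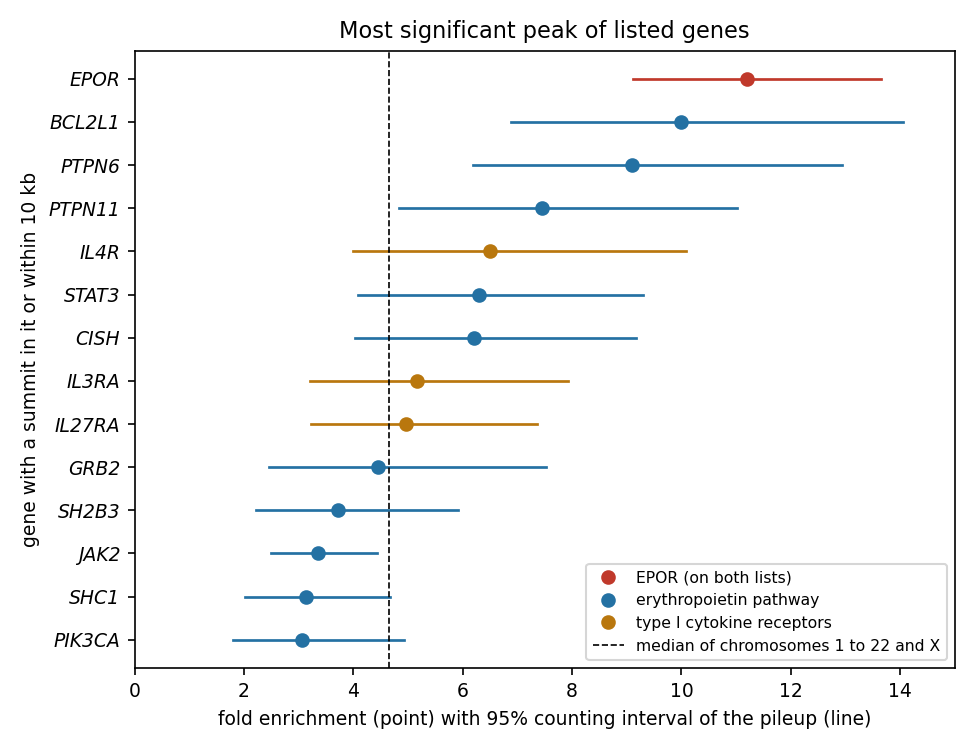
Fold enrichment of the most significant peak in or within 10 kb of listed genes (points) with the 95% counting interval of its pileup at fixed background (lines), and the median of 1564 peaks (dashed). EPOR stands highest with 11.2, and the intervals of BCL2L1, PTPN6, PTPN11, IL4R, STAT3 and CISH reach into its own interval of 9.11 to 13.6.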

How the data were processed

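The measurement was AM-tag chromatin immunoprecipitation sequencing of F36P cells, with 1 AM-ERG and 1 Vector library. Per the labels' protocols, each precipitation used 10 µg of chromatin, from 10000000 cells fixed with 1% formaldehyde and treated with micrococcal nuclease for 20 minutes. Per the submitters' processing notes, Bowtie2, MACS2 and deepTools were used with build hg38. Versions, settings, the library in which the peaks were called and the one that served as control are not given in the sources used. The file is a headerless narrow peak list. The deposited columns give, per peak, the fold enrichment as a ratio over local background, −log10 values of p and q (largest q 0.0474), a score and the position of the summit. Read depth was unknown, and higher backgrounds need a lower fold to pass.

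The pileup and background at each summit were recovered from the fold, read as (pileup + 1)/(background + 1), and the p, read as the Poisson probability of more fragments than the pileup. This returned the deposited p within 0.001 (log10) for 1645 of 1645 peaks, and 300 of 300 peaks when tested on simulated data. The simulated peaks were made with the same formulas, over a narrower range of folds and backgrounds than the list. They thus check the inversion only, and cannot show that the formulas are those used for the list. Genes, starts and promoter sequences came from RefSeq on GRCh38.p14. Both lists of 33 and 32 genes were matched in full. Starts and sequences covered 15811 of 19970 protein-coding genes, and none on chromosome 8. Summits, not peak intervals, placed peaks, and genes without a start in the table were left out of counts by start.

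The members and lists were chosen with earlier results of these data known, and no test was run. Named genes were EPOR, coding genes within 50 kb, list genes with a peak, EPO, JAK2, STAT5A and STAT5B, and the genes nearest to the 5 peaks above and below the start peak by fold and to the 5 most like it. All other genes in the text, among them DNMT1, ZNF136, BZW1, BIRC6, RARA and further list genes without a peak, were named after their values were seen. Some genes under this rule are counted but not reported here. Alternatives changed the window, the threshold, the measure ranked, the recovery and the motif. The software was Python 3.11.15, SciPy 1.17.1, numpy 2.4.6, pandas 2.3.3 and, for figures, matplotlib 3.10.9.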

Additional observations from a re-analysis of the deposited data

How the results depend on the processing

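No paired analysis was possible because there is 1 library per group, and leaving out a replicate was not possible for the same reason. The count of 2 peaks at EPOR held at 10 kb, with any overlapping base and in the upper 50% by −log10 q or by fold, and was 3 at 100 kb. It was 0 when peaks with a background over 2 times the median were dropped, an alternative added after the data were seen, which also leaves the start peak without a rank. The rank of 19 by fold became 10 by −log10 p, 83 by pileup and 36 by pileup minus background over all peaks, and 13 among peaks at coding gene ends. It was 12 among peaks at coding starts, also chosen after seeing the data, where fewer peaks are ranked. On the genome's median background the fold of 11.2 became 21.7. The pathway count of 12 genes was 12 within 1 kb (7.24% of all coding genes) and 14 within 50 kb (17.7% of all). It was 8 in the upper 50% by −log10 q and 7 by fold, for which no share of all genes was taken. The receptor count of 5 was 2 within 1 kb and 2 within 1 kb of a start (chosen after seeing the data), and 8 within 50 kb, as narrower or wider windows imply. In place of 2 matches to GGAA, CCGGAAGT and AGGAAG each gave 0. A pileup could not be recovered with the tail including the pileup (0.37% of 1622 peaks gave back their p) or with no pseudocount (0.555%).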
